A study of Drosophila melanogaster with 2 samples.

Results

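The 8 genes described here encode the cohesin ring, its loader and its regulators in Drosophila melanogaster: vtd, SMC1, SMC3, SA1, Nipped-B, pds5, wapl and eco. They were chosen by name, with earlier results of these data known, and are 8 of the 13968 protein-coding genes in the annotation. The further gene lists set beside them were also chosen with those results known. For each gene, every summit inside it or within 5 kb of it was taken from 4 deposited peak lists of Su(var)2-HP2, a heterochromatin protein that binds HP1. Binding was mapped by ChIP-seq with anti-GFP, in 0 to 10 h embryos taken whole. Their transgenic parent line stably expressed Su(var)2-HP2 with a C-terminal GFP. The promoter that drives the fusion is not given in the sources used here. There was 1 group of 2 biological replicates, numbered 4 and 6, and no second genotype, treatment or age. A whole embryo mixes many cell types, so a weak peak in all nuclei and a strong peak in a few cannot be told apart.

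The lists are those of replicate 4, replicate 6, both pooled (30000 peaks each) and a list cut by the irreproducible discovery rate (IDR), a measure of how well replicates agree, which holds the 2006 strongest pooled peaks. A peak's signal is the authors' score for it, on a scale not given in the sources used here. Relative signal is that score over the median score of its own list's 2006 strongest peaks, so that 1 is a typical strong peak. The lists give no read numbers, so depth is unknown. With 1 group and 2 replicates no test was run, and every comparison below is a description.

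Cohesin is a ring-shaped complex that holds sister chromatids together from replication until they separate, and it also shapes chromatin loops and gene expression. SMC1 and SMC3 are its long ATPase arms, the kleisin Vtd (also called Rad21) closes the ring, and SA1 binds the kleisin. Nipped-B loads the ring onto DNA, Pds5 and Wapl control its release, and Eco acetylates SMC3 to make cohesion stable. In Drosophila, Nipped-B is dosage-sensitive, and cohesin is found at many active genes. Pericentromeric heterochromatin is the HP1-rich, repeat-rich DNA beside the centromeres, in which some genes with long introns are active.

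The stretches upstream of 4 of the start sites are shown to set the strongest call, at vtd, beside 3 weak ones. Capitals mark CGATA, the core of sites of the insulator protein BEAF-32, and GCCAT, the core of sites of the Polycomb-group protein Pho, each on either strand. The sequences are from the RefSeq assembly of the dm6 build, 5′ to 3′ on the strand of the gene, and each ends at the base before the start site. The vtd stretch is chr3L:27136275-27136524 (plus strand), and its pooled summit lies at base 151. The SA1 stretch is chr2L:6950208-6950420 (plus strand), with the pooled summit at base 152. It spans the whole gap to Gas41, which is transcribed the other way, as the SMC3 stretch does to Ubc7. The SMC3 stretch is chrX:16593440-16593676 (minus strand), with the pooled summit at base 17. The SMC1 stretch is chr3R:24058037-24058286 (plus strand). Its summit in replicate 6 lies at base 156, the first base of a CGATA.
vtd promoter: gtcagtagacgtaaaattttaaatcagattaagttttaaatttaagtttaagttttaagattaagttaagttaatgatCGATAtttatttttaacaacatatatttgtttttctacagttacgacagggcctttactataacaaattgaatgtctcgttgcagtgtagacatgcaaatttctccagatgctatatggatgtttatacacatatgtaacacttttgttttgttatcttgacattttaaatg
SA1 promoter: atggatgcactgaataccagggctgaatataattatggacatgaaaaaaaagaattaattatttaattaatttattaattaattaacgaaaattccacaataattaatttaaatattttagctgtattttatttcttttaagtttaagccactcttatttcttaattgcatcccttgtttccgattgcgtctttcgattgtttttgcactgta
SMC3 promoter: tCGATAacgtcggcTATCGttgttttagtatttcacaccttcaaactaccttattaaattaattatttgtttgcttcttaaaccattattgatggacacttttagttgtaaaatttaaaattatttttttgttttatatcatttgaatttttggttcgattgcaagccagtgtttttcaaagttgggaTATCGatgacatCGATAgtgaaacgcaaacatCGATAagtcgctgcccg
SMC1 promoter: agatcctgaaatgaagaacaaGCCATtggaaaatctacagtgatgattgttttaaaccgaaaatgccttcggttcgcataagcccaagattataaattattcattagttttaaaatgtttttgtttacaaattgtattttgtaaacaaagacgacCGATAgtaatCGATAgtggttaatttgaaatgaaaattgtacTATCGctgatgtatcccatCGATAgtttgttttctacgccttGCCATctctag

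Of the 8 genes, vtd, Nipped-B and pds5, 3 in all, had a start-site summit in the IDR list, which means one at most 500 bp from an annotated start site. The background for that call was 8.84% of all protein-coding genes. It was far from even over the genome, at 46.1% of the 193 pericentromeric genes and 8.01% of the 13672 genes on the chromosome arms. Both pericentromeric members, vtd and Nipped-B, had the call, as did 1 of the 6 on the arms. Of the members, 6 had a start-site summit in the pooled list, where the background was 37.9%. In replicate 4 there were 7, all except SMC1, against a background of 41%. In replicate 6 there were also 7, all except eco, against 35.7%.

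**Figure D1:**
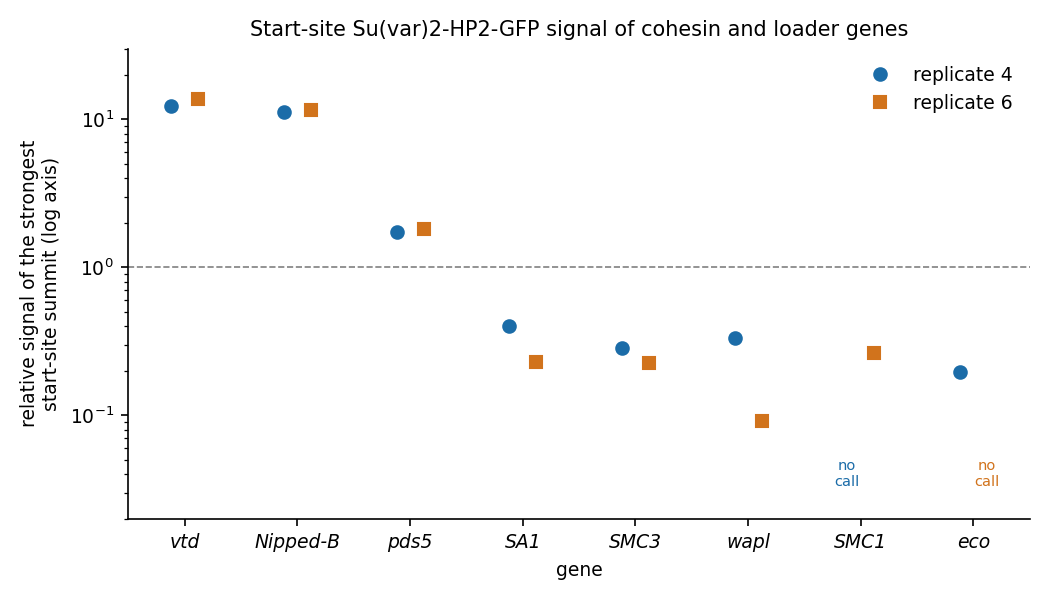
Relative signal of the strongest summit within 500 bp of a start site (y axis, log scale, no unit) for the 8 genes (x axis) in replicate 4 (circles) and replicate 6 (squares). The dashed line at 1 is the median of the 2006 strongest peaks of a list; vtd, Nipped-B and pds5 lie above it in both replicates, and the wapl points belong to different start sites.

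The kleisin gene vtd (FBgn0260987, chr3L:27136525-27157999, plus strand) had the strongest start-site summit of the 8 genes. Its pooled signal was 2785, rank 47 of 30000, at a summit 100 bp upstream of the start site in no annotated exon. The signal was 1570 in replicate 4 and 1240 in replicate 6, ranks 47 and 48. The replicate summits were 4 bp apart, and relative signal was 13.1 ± 0.964 (SD, n = 2). The called interval was 3674 bp wide and held 3 IDR summits. One of the other two lay 2089 bp upstream, with a signal of 116 in replicate 4 and 173 in replicate 6. Its relative signal was 1.42 ± 0.713 (SD, n = 2), and its replicates lay on both sides of 1. The last, with a pooled signal of 153, lay 32 bp from the start of lncRNA:CR46252 and had a matched summit in replicate 6 alone. A further noncoding gene, lncRNA:CR45181, starts 376 bp from the main summit and could share it.

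The loader gene Nipped-B (FBgn0026401, chr2R:4691672-4729017, minus strand) had a start-site summit of similar size. Its pooled signal was 2434, rank 62, at a summit 101 bp upstream of the start site. The signal was 1434 in replicate 4 and 1032 in replicate 6. Relative signal was 11.4 ± 0.0895 (SD, n = 2), lower than at vtd in each replicate (11.3 against 12.4 in replicate 4, 11.5 against 13.8 in replicate 6). A second IDR summit 315 bp upstream shared the called interval of 2381 bp and had a relative signal of 5.92 ± 0.121 (SD, n = 2). Another, with a pooled signal of 184, lay 86 bp from the start of lncRNA:CR45471. No summit lay within 100 bp of it in either replicate, although it is in the IDR list. Both replicates did have summits near the start of that lncRNA, at 16 bp and 238 bp in replicate 4 and 72 bp in replicate 6.

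The fourth IDR summit of Nipped-B was inside the gene, 27593 bp downstream of the start site, in an intron and within an INE-1 transposable element. Its pooled signal was 313, rank 574, with 204 in replicate 4 and 123 in replicate 6. Relative signal was 1.49 ± 0.177 (SD, n = 2), and both replicates were above 1. An IDR summit inside the gene and over 500 bp from every start site was found in 21.8% of pericentromeric genes and in 2.2% of arm genes. By the signal of the strongest such summit, Nipped-B stood 12th of the 42 pericentromeric genes that have one. The gene vtd had none.

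**Figure D2:**
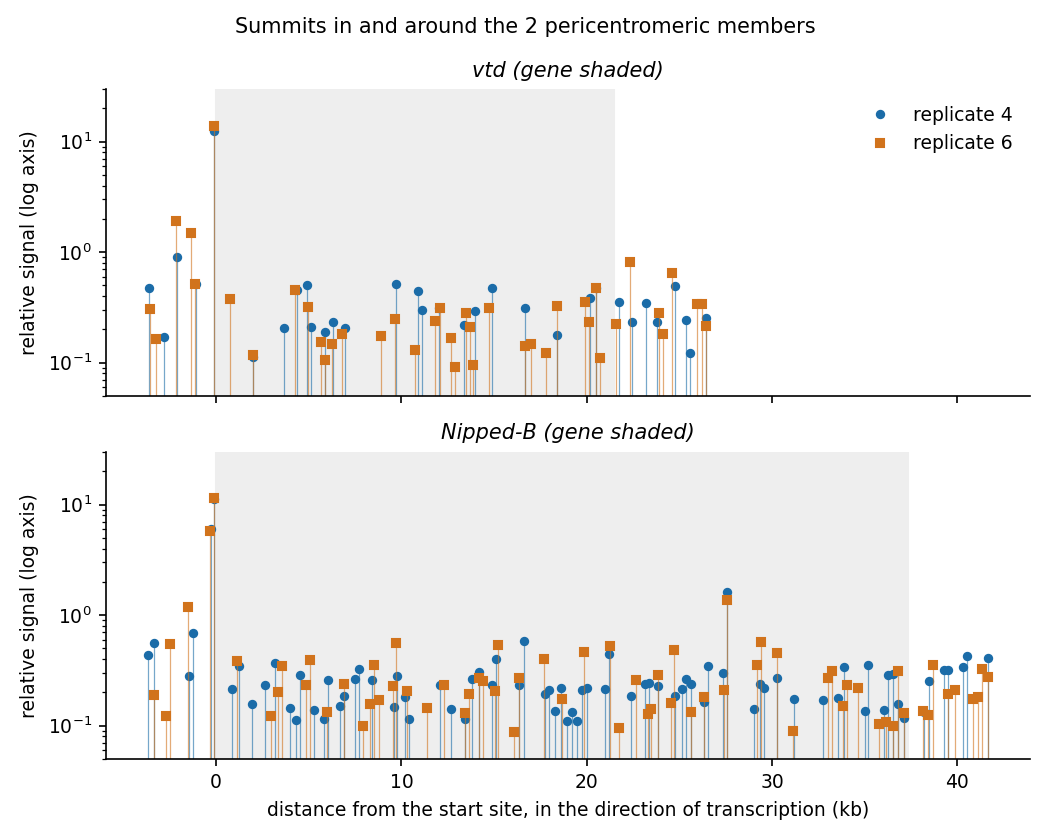
Relative signal (y axis, log scale, no unit) of every summit in and within 5 kb of vtd and Nipped-B against distance from the start site in kb (x axis), for replicate 4 (circles) and replicate 6 (squares), with the gene shaded. The strongest start-site summits stand above 10, and the INE-1 summit of Nipped-B, 27593 bp in, is the only one inside either gene above 1 in both replicates.

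Weak summits ran through the whole of both genes. Of the 119 pooled summits in the windows of the 8 genes, 35 belonged to vtd and 69 to Nipped-B, 87.4% in all. More than 500 bp inside the gene, vtd held 21 pooled summits, 20 in introns and 1 in a coding exon. Their signal ran from 18.8 to 101 with a median of 44.5, and the start-site summit was 62.6 times that median. Nipped-B held 53, of which 42 were in introns and 11 in coding exons. Their median signal was 46.8, and its start-site summit was 52.1 times that. For comparison, the median of all 30000 pooled peaks was 32.4. All 6 arm members had 0 such summits in each of the 4 lists.

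The 2 genes differ from the other 6 in make-up as well as place. Introns took up 88.2% of vtd and 82% of Nipped-B, against 6.28% to 22% of the arm members. Transposable elements covered 12.9% of vtd and 46.7% of Nipped-B, and 0% of the arm members. Of the interior pooled summits, 4 of 21 in vtd and 25 of 53 in Nipped-B lay in such an element. How reads with several places in the genome were treated is not given in the sources used here, and the part of repeats in these summits was not tested. Per kb of gene, vtd had 1 interior summit and Nipped-B 1.44. Among the 123 pericentromeric genes of at least 2 kb the median was 1.01 (quartiles 0.656 and 1.29), and 47.2% of them were lower than vtd and 84.6% lower than Nipped-B. Among arm genes of that length the median was 0, and 66.7% had none. On chromosome 4 the median of 76 such genes was 1.21, and 1.32% had none.

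Of the pooled summits inside the gene, 12 of 21 in vtd and 26 of 53 in Nipped-B had a summit within 100 bp in both replicates. In the whole pooled list, of lower median signal (32.4), 34.4% did. No set of like signal or like summit density was compared. Of the members' 8 pooled start-site summits, 7 had such a match, all except that at the outer start site of wapl. Those 8 include 2 each at Nipped-B and wapl. Over all genes with a pooled start-site summit, only the strongest one was counted. It was matched in both replicates for 71.4% of pericentromeric and 53.2% of arm genes. By that measure every member with a pooled start-site summit had a match except wapl, whose strongest is the unmatched one. Most interior peaks, 18 of 21 in vtd and 45 of 53 in Nipped-B, had the width of 430 bp that 90.8% of all pooled peaks share, so their called edges carry no information on extent. Of the summits in the whole windows, 23 of 35 at vtd and 48 of 69 at Nipped-B had a q-value under 0.05, as did 12389 of the 30000 pooled peaks.

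Of the 193 pericentromeric genes, 89 had an IDR start-site summit, and the rest had none to compare. Among those 89 only, vtd and Nipped-B were in the middle to upper range. By pooled signal of the strongest IDR start-site summit, vtd was 46th and Nipped-B 64th of 1235 genes, but 29th and 35th of the 89 pericentromeric ones. In the IDR list, relative signal was 13.7 at vtd and 11.9 at Nipped-B, against a median of 10.3 over those 89 genes (quartiles 6.27 and 14.2). The called widths of 3674 bp at vtd and 2381 bp at Nipped-B stood beside a median of 2524 bp in these genes and 372 bp in arm genes. Chromosome 4 was similar: its 51 genes with an IDR start-site summit had medians of 9.1 in relative signal and 2144 bp in width. The nearest protein-coding genes on each side of vtd are CG40228, 52618 bp away with a pooled start-site signal of 3033, and the ribosomal protein gene RpL15, 109255 bp away with 3250. Both were higher than vtd. Beside Nipped-B, CG17883, 18032 bp away, had 2882 and was higher, and conu, 15330 bp away, had 1278 and was lower.

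**Figure D3:**
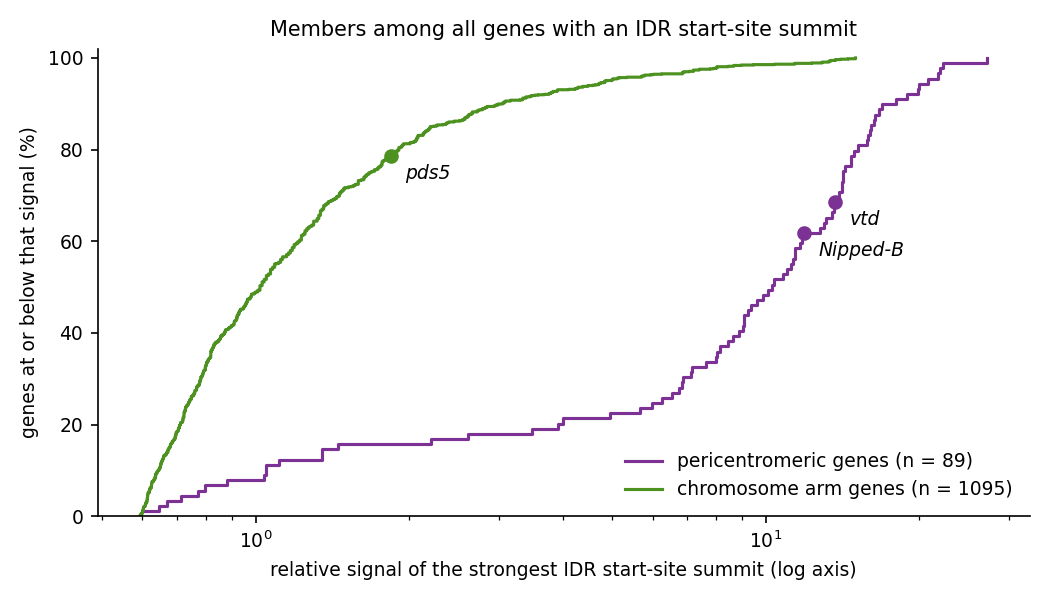
Share of genes at or below a given relative signal of the strongest IDR start-site summit (y axis, percent; x axis, log scale, no unit), for 89 pericentromeric genes and 1095 chromosome arm genes, with the members marked. Both vtd and Nipped-B lie inside the pericentromeric distribution, and pds5 lies in the upper part of the arm distribution.

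The cohesin regulator gene pds5 (FBgn0260012, chr2R:12027985-12033725, plus strand) was the one arm member with an IDR summit. Its pooled signal was 375, rank 460, at a summit 202 bp upstream of the start site. The signal was 220 in replicate 4 and 163 in replicate 6, with summits 2 bp apart. Relative signal was 1.77 ± 0.051 (SD, n = 2). In the IDR list it was 1.84, against a median of 1.02 for the 1095 arm genes with such a summit (quartiles 0.742 and 1.68). It stood 238th of them. The summit is nearer to Mppe, a metallophosphoesterase gene transcribed the other way, at 76 bp, so the peak cannot be given to one of the pair. The called interval was 321 bp wide and, unlike those of vtd and Nipped-B, did not reach the start site. The other neighbour, CG8321, had a pooled start-site signal of 18.5. At a further pooled summit 2825 bp upstream of pds5, with a signal of 52.3, the nearest start site was that of otk2.

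The kleisin-binding subunit gene SA1 (FBgn0020616, chr2L:6950421-6954586, plus strand) had a pooled start-site signal of 71, rank 4218. The lowest signal in the IDR list was 121. The signal was 50.9 in replicate 4 and 20.6 in replicate 6, a relative signal of 0.315 ± 0.123 (SD, n = 2). The summits lay 3 bp and 49 bp upstream of SA1 and 211 bp and 165 bp from the start of Gas41. The replicates differed by more here than at vtd, Nipped-B or pds5, with replicate 6 at 0.567 times replicate 4. Replicate 4 also had 3 summits around the neighbouring gene ihog that had no match in replicate 6.

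The ATPase arm gene SMC3 (FBgn0015615, chrX:16588996-16593439, minus strand) had a pooled start-site signal of 55, rank 6540. The signal was 36.4 in replicate 4 and 20.3 in replicate 6, a relative signal of 0.256 ± 0.0437 (SD, n = 2). The pooled summit was 221 bp upstream of SMC3 but 17 bp from Ubc7, a ubiquitin-conjugating enzyme gene, and the summit of replicate 6 lay in the 5′ UTR of Ubc7. In the SMC3 promoter stretch printed above, the pooled summit falls within the TATCG that starts at base 15, near the Ubc7 end. A match near a summit is a description of the letters and no evidence of binding by that factor.

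The other ATPase arm gene, SMC1 (FBgn0040283, chr3R:24058287-24062815, plus strand), had a start-site summit in replicate 6 alone. Its signal was 23.8, rank 7366, at 95 bp upstream. No pooled summit lay in its window. Both replicates had a summit near the start of the heat shock gene Hsp68, with 28.1 in replicate 4 and 13.4 in replicate 6, 1021 bp and 1040 bp from SMC1. These were weak, at ranks 12037 and 16687.

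The release factor gene wapl (FBgn0004655, chrX:2149936-2158983, minus strand) has 2 annotated start sites, and the replicates differed in which was called. At the outer one the pooled signal was 41.7, rank 10337, with 42.1 in replicate 4 and no call in replicate 6. At the inner one the pooled signal was 29.8, with 15.2 in replicate 4 and 8.27 in replicate 6, at an intronic place of the longer transcript. That replicate 6 call had rank 27911 of 30000 and a −log10 q-value of 0.335, short of a q-value of 0.05. The lowest signal in the replicate 6 list was 7.6. The acetyltransferase gene eco (FBgn0035766, chr3L:7335442-7339340, minus strand) had a start-site summit in replicate 4 alone, with a signal of 24.6, rank 14836, 171 bp from the start of lark, an RNA-binding protein gene, and 295 bp from eco. The −log10 q-value was 0.98, short of a q-value of 0.05, and the pooled list and replicate 6 had 0 summits in the window of eco.

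**Figure D4:**
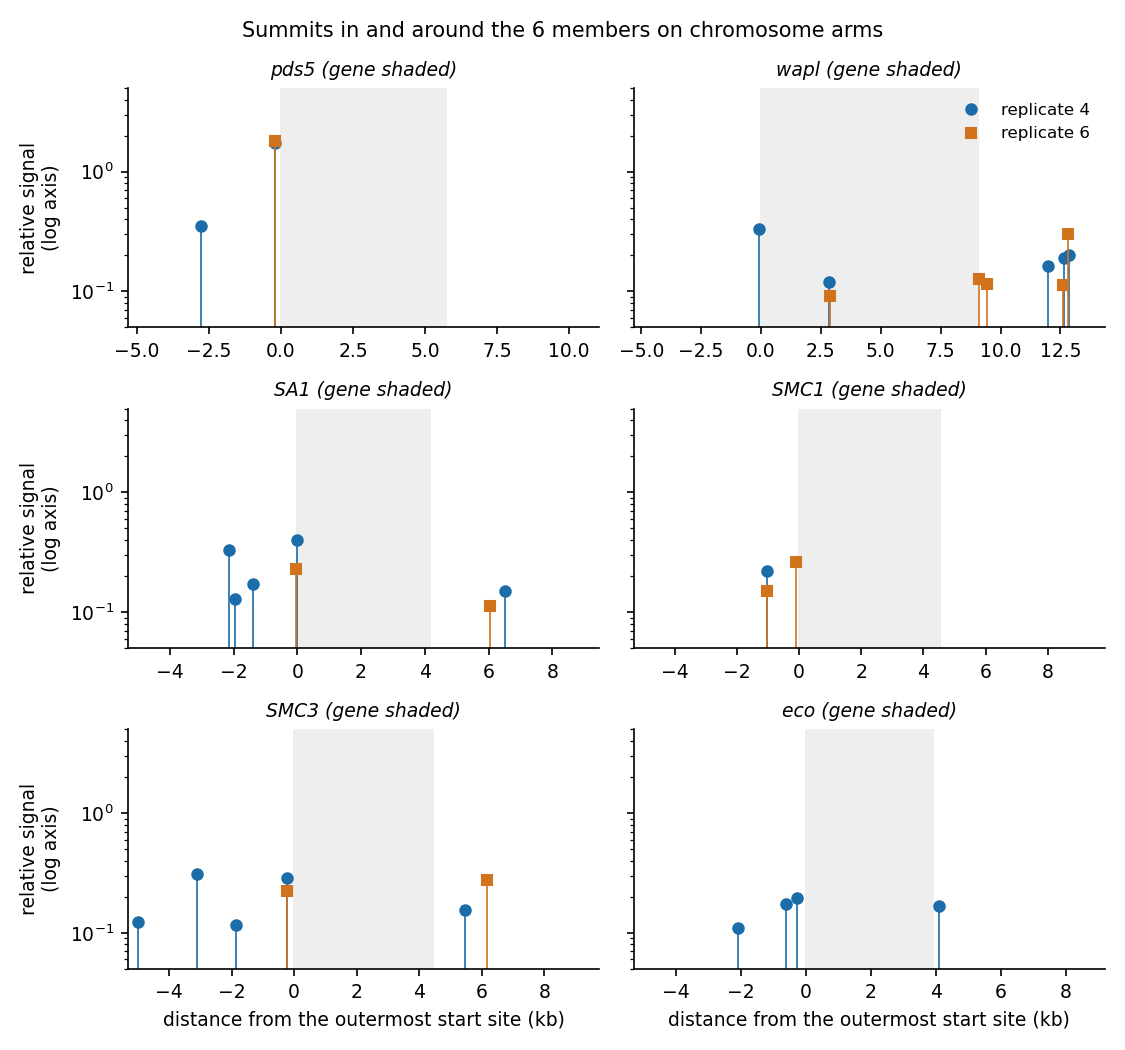
Relative signal (y axis, log scale, no unit) of every summit in and within 5 kb of the 6 members on chromosome arms against distance from the outermost start site in kb (x axis), for replicate 4 (circles) and replicate 6 (squares), with the gene shaded. The pds5 start-site summits are the highest points, and the only summits inside a gene are those at the inner start site of wapl.

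In order of start-site signal, vtd and Nipped-B came first, then pds5, with the other 5 well below. In each replicate the 3 values kept that order. The order of SA1, SMC3, wapl, SMC1 and eco did not hold between replicates. In replicate 4 SA1 was highest of the 5 at a relative signal of 0.402, and in replicate 6 it was SMC1 at 0.264. With a window of the gene and 5 kb on each side, 3 members had an IDR summit (background 22.3%) and 6 a pooled summit (60.9%). All 8 had one in replicate 4 (65.1%) and 7 in replicate 6 (66.8%).

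Every strongest start-site summit of a member lay upstream of its start site: 3 of 3 in the IDR list, 6 of 6 in the pooled list and 7 of 7 in each replicate. Over all genes with such a summit the upstream share was 92.2% in the IDR list, 76.3% in the pooled list, 72% in replicate 4 and 77.9% in replicate 6. In the IDR list the distance was 100 bp at vtd, 101 bp at Nipped-B and 202 bp at pds5, against a median of 145 bp over all 1235 genes.

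Motif letters in the promoters, from 250 bp before to 50 bp after the outermost start site, were counted on both strands. TATCGATA, the site of the replication-related factor DREF, was in the promoters of vtd, SA1 and wapl, 3 of 8. It was in 9.36% of all 13960 promoters and in 14.9% of those with an IDR start-site summit. At vtd it lies just inside the transcribed part and at SA1 beyond the gap to Gas41, so neither is in the stretches shown. CGATA, which TATCGATA contains on both strands, was in 6 of 8, all except pds5 and eco, and in 47.4% of all promoters. SMC3 had 6 matches and SMC1 had 4. GGTCACAC, the site of M1BP, was in wapl alone (7.69% of all promoters). GAGAG, the core of GAGA factor sites, was in 3 (29.7%), GCCAT in 3 (41.2%) and the E box CAGCTG in 1 (17.7%). CAGGTAG, the site of the early activator Zelda, was in 0 (1.64%). The letters did not sort the members by signal: pds5 shares none of the DREF or CGATA matches, and SMC3 and SMC1 have more of the latter than vtd. The GC content of the members' promoters ran from 26.7% at vtd to 43.7% at wapl, against a median of 38% over all promoters (quartiles 33.3% and 44.3%). It did not follow the signal either, at 30% for SA1 and 31% for SMC3, 35.3% for Nipped-B and 40.7% for pds5.

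The genes most like each called member were found by the summed absolute difference of log2 relative signal over the 2 replicates, among 4093 genes with a start-site summit in both. For vtd they were CG14647 and CG9853, which share 1 summit on an arm, and CG17883, the neighbour of Nipped-B. CG17883 had relative signals of 13.2 in replicate 4 and 13.8 in replicate 6. For Nipped-B they were Rad23 and Zyx on chromosome 4 and the pericentromeric gene Slmap. For pds5 they were Mppe, which shares its summit, Dph2 and PAN3, all on arms.

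Other genes of chromosome cohesion did not have summits as strong as those of vtd and Nipped-B. Of 12 such genes, all on chromosome arms, 3 had an IDR start-site summit, against a background of 8.01% of arm genes. For solo, needed for meiotic cohesion, relative signal was 5.5 ± 0.952 (SD, n = 2), at a start site it shares with the germline helicase gene vas. The securin gene pim had 2.55 ± 0.429 (SD, n = 2), shared with Cand1. The shugoshin gene mei-S332 had 1.72 ± 0.194 (SD, n = 2), shared with Vrp1. That summit lies at an inner start site of mei-S332, and with the outermost start site only, the call was lost. In the pooled list 6 of the 12 had a start-site summit, against 37.9% of all protein-coding genes. Among them was Mau2, whose product is the partner of Nipped-B, at a relative signal of 0.211 ± 0.0291 (SD, n = 2). The partner genes thus had values of 11.4 for Nipped-B and 0.211 for Mau2.

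Of 12 chosen genes of condensin and the SMC5/6 complex, 2 had an IDR start-site summit. These complexes are the relatives of cohesin that compact chromosomes and act in DNA repair. The list of 12 was not complete. Nse4, a further SMC5/6 gene on an arm, was left out of it and had an IDR start-site summit, at a relative signal of 1.64 in the IDR list. SMC5 had a relative signal of 3.76 ± 0.805 (SD, n = 2), at a summit also near CRIF. SMC6 had 0.754 ± 0.0369 (SD, n = 2), at a summit also near CG6204. All 12 were on arms, where the background for that call was 8.01% of genes. In the pooled list 7 had a start-site summit, against 37.9% of all protein-coding genes. Each of the 5 IDR summits in these 2 lists lay within 500 bp of a second protein-coding gene, as that of pds5 did. None of these peaks can therefore be given to 1 gene. How many other arm genes with an IDR start-site summit share it in this way was not counted.

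**Figure D5:**
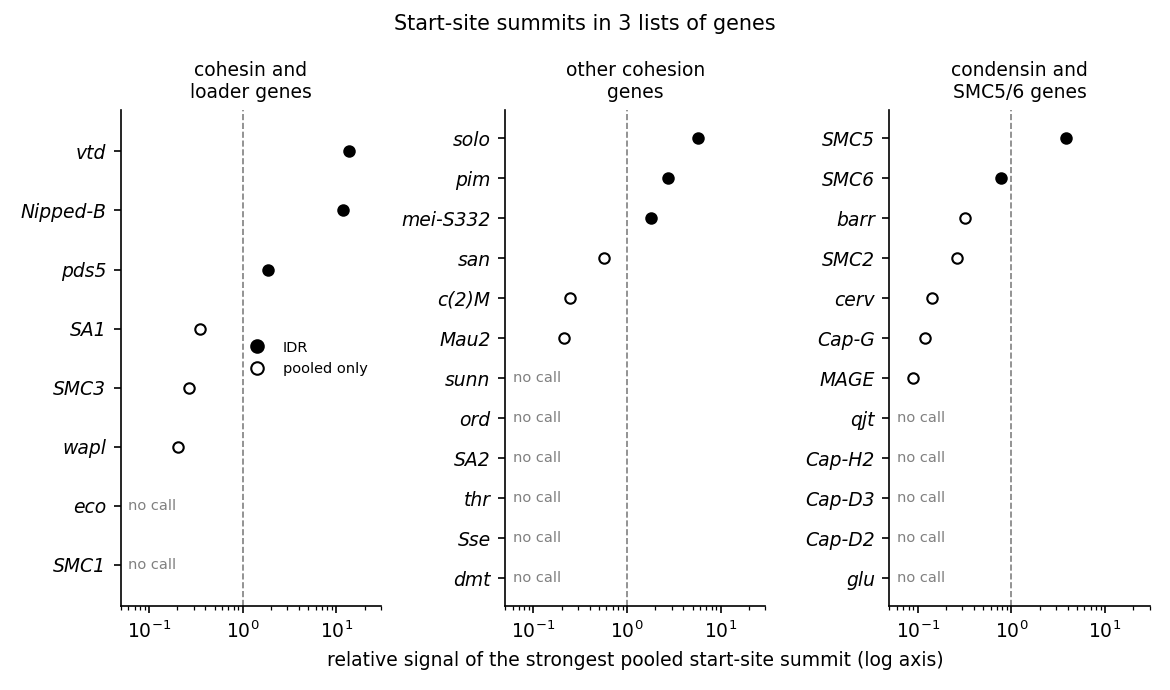
Relative signal of the strongest pooled start-site summit (x axis, log scale, no unit) for the 8 cohesin and loader genes, 12 other cohesion genes and 12 condensin and SMC5/6 genes (y axis, ordered by signal), filled where the summit is in the IDR list. The highest points are vtd and Nipped-B, the 2 pericentromeric genes of the 32.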

How the data were processed

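ChIP-seq peak lists of Su(var)2-HP2-GFP from embryos were used as deposited, on build dm6, per the labels. The score (signal value) and the −log10 q-value of each peak are the authors'. A shared control alignment entered each call, per the deposited file listing, and is not analysed here. No source used here names the aligner or peak caller. Chromatin was sonicated to 200 to 800 bp, per the labels.

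Summits were placed with Python 3.11.15 and pandas 2.3.3 against Ensembl release 115. Replicate summits matched within 100 bp. Pericentromeric DNA was taken as 2L beyond 22 Mb, 3L beyond 23 Mb, X beyond 22 Mb, and the first 5.4 Mb of 2R and 4.2 Mb of 3R. Summit placement and matching were tested on simulated summits. No test compares groups. Values are mean ± SD over the 2 replicates, which are biological per the labels. Named were all members, genes that share their summits, nearest neighbours, the 3 most similar genes, and called members of 2 further lists. Otherwise named genes (next to weak summits, and Nse4) were chosen after their values were seen. The members and lists were chosen with earlier results of these data known. Alternatives covered distances, peak sets, scaling and each replicate left out.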

Additional observations from a re-analysis of the deposited data

How the results depend on the processing

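The 3 members with an IDR start-site summit were vtd, Nipped-B and pds5 under 7 of 8 alternatives, and 2 (without pds5) when the called interval had to cover the start site. The share of all genes was 4.95% in the upper 1003 IDR peaks and 5.59% with the interval rule, against 8.84%, and 8.46% to 8.74% with 1 replicate left out. The condensin and SMC5/6 count was 1 (SMC5) in place of 2 under those same 2 settings. With 10 kb in place of 5 kb, 5 members had an IDR summit in place of 3, and the share of all genes was 31.4% in place of 22.3%. With overlapping intervals in place of summits within 100 bp, 99 of the members' 119 pooled summits matched in both replicates, against 58. Scaling by the 1000 strongest peaks gave a relative signal of 7.68 at vtd, 6.7 at Nipped-B and 1.04 at pds5, and scaling by all peaks 74.6, 64.7 and 10.1. Moving the borders by 0.5 Mb, an alternative chosen after seeing the data, put the pericentromeric share of 46.1% at 53.7% (toward the centromere) or 33.3% (away from it). The other counts stayed within 1.5 times. No paired analysis was possible because there is 1 group and no comparison between groups. The files give no read numbers, so what depth limits is unknown.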
